A study of Mus musculus with 34 samples.

Results

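The enzymes that write and erase histone and DNA marks were examined in the dorsal hippocampus of mice after spatial learning. Members were the protein-coding genes whose GENCODE symbol is that of a numbered histone deacetylase (Hdac), a sirtuin (Sirt1 to Sirt7), a lysine demethylase (Kdm), a lysine methyltransferase of the Kmt series, a lysine acetyltransferase of the Kat series, a DNA methyltransferase (Dnmt) or a TET dioxygenase (Tet1 to Tet3), together with Ep300 and Crebbp. The rule used symbols only and no measured value, and it gave 62 genes of the 54532 rows of the bulk RNA-seq table, 23 writers and 39 erasers. These roles follow the family, so the erasers include enzymes outside the nucleus, such as cytoplasmic Hdac6 and mitochondrial Sirt4. A further 9 matching rows were pseudogenes, antisense transcripts or other non-coding records and were left out.

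Bulk RNA-seq was done on adult male C57BL/6J mice aged 2 to 3 months, 4 of them homecage controls and 4 trained in spatial object recognition (SOR) and euthanized 1 h later. SOR training was an open-field habituation session followed by repeated sessions with 3 objects, all mice were housed singly and handled beforehand, and homecage mice were taken at the same time of day without training. The mice carried no transgene, and each mouse gave 1 library. The comparison asked whether the transcripts of chromatin enzymes differ between trained and homecage mice during the early phase of memory consolidation.

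Histone acetyltransferases add acetyl groups to lysines of histone tails, which loosens chromatin and recruits bromodomain proteins. Deacetylases, found among the HDACs and the NAD-dependent sirtuins, remove them. Lysine methyltransferases and demethylases set and remove methyl marks that mark active promoters, enhancers or silenced chromatin, depending on the residue. DNA methyltransferases methylate cytosine at CpG sites, and TET enzymes oxidize the methyl group as a first step of its removal. In hippocampal neurons several of these enzymes, among them CBP (Crebbp), HDAC2 and HDAC3, are known as regulators of long-term memory.

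Library totals were 51406011 to 81525977 estimated counts, and 22018 genes passed the filter on low counts. Levels are given as CPM, counts divided by the library size in units of 1000000, with library sizes scaled by upper-quartile factors. Neuronal markers (Rbfox3, Snap25, Syt1, Slc17a7, Gad1, Gad2) summed to 3214 to 3545 CPM in homecage and to 3223 to 3485 CPM in SOR libraries, and markers of hippocampal subfields (Prox1, Wfs1, Dsp, Calb1, Neurod6) to 512 to 575 and 522 to 564 CPM. The 7 immediate early genes used to check the SOR labels (Arc, Fos, Egr1, Egr2, Nr4a1, Junb, Fosb) all passed the test and were higher in SOR, with sums of 157 to 175 CPM in homecage and 364 to 430 CPM in SOR libraries. Choroid plexus markers (Ttr, Folr1, Kl) varied from 23.4 to 1052 CPM in homecage and from 38.7 to 3879 CPM in SOR libraries, and none of these 3 genes passed. On the first 2 principal components over all genes, with 22.0% and 18.8% of the variance, SOR replicates 1 and 4 both lay apart from SOR replicates 2 and 3, at opposite ends of the first component. SOR replicate 1 was the lowest SOR library for 30 of the 60 members tested and SOR replicate 4 for 12. In whole tissue, fewer cells of a type and less RNA per cell cannot be told apart.

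Of the 62 members, 60 passed the filter and were tested, and 1 changed after SOR training by the quasi-likelihood F test of edgeR, with p adjusted by Benjamini-Hochberg over the 22018 genes and a threshold of 0.05. That gene was Kdm7a, a JmjC demethylase, with a 1.30-fold rise. Over all genes tested, 0.273% were higher in SOR at this threshold and 0.0363% were lower. Among protein-coding genes, the type of all members, these shares were 0.355% and 0.0508%. No member was lower at this threshold by edgeR, DESeq2 or limma-voom, while 4 members were lower at an unadjusted p under 0.05. At that unadjusted threshold 8 members (13.3%) were higher and 4 (6.67%) were lower, beside 4.54% and 5.51% of all genes. The shares among protein-coding genes were 5.32% and 6.07%.

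Members whose 4 SOR values all lay on one side of the 4 homecage values numbered 10. For 6 members (10.0%) every SOR library was above every homecage library, beside 2.98% of all genes tested and 3.53% of the protein-coding ones. For 4 members (6.67%) every SOR library was below, beside 3.96% of all genes and 4.4% of the protein-coding ones. The former were Kdm7a, Kmt2a, Kdm3a, Kmt5a, Kat6a and Kdm5b, and the latter were Kdm6a, Kdm4d, Kdm4c and Hdac3. Groups that do not overlap fix the exact two-sided permutation p at 0.0286, the smallest that the 70 assignments of 4 against 4 allow, so that p adds nothing to the separation itself.

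**Figure D1:**
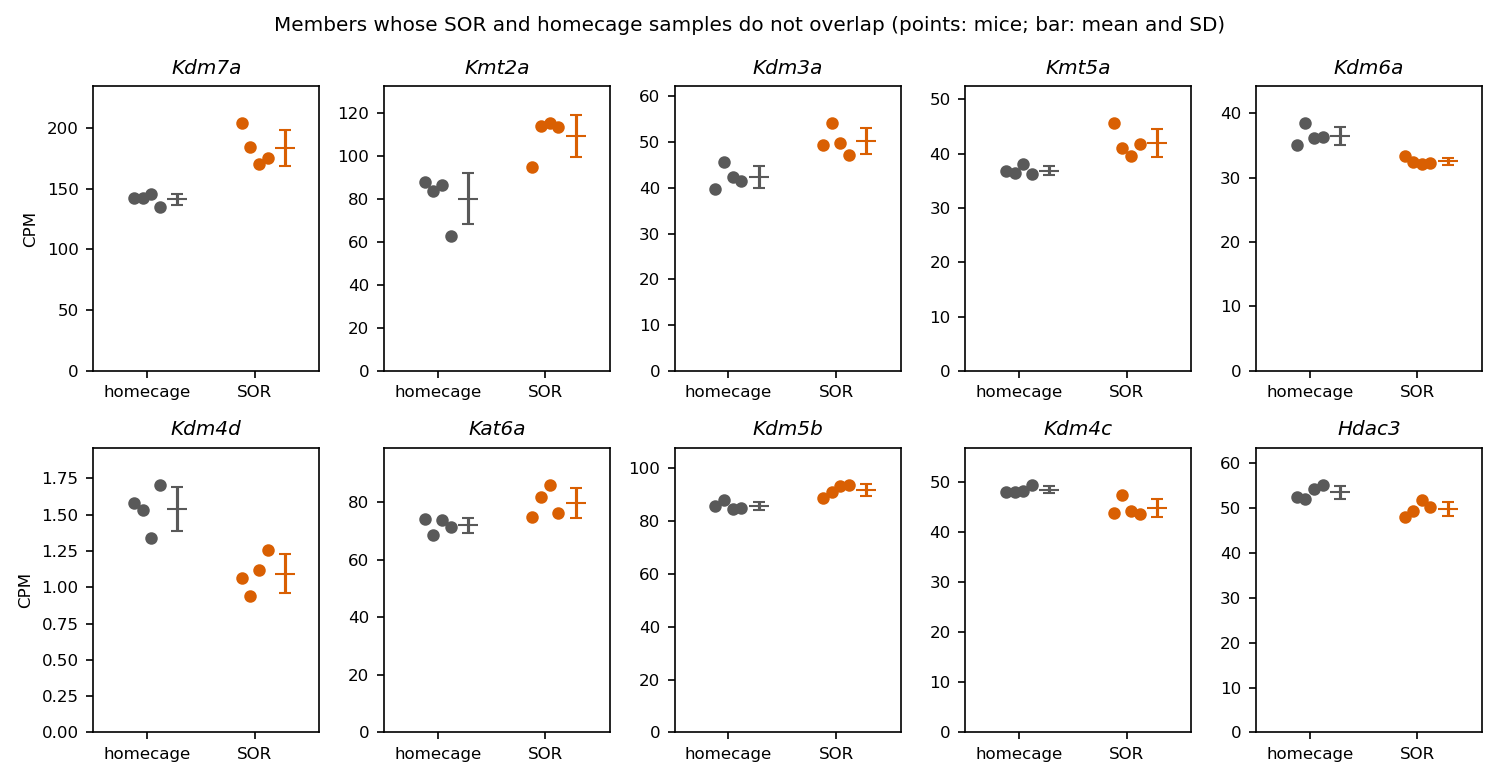
CPM in each of the 8 mice for the 10 members whose SOR and homecage values did not overlap, with every axis starting at 0. Points are mice, and the bar beside them gives the group mean and SD (n = 4). Kdm7a had the highest level of the 10 and was the member that passed the test over all genes, with 135 to 145 CPM in homecage and 170 to 204 CPM in SOR mice.

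Kdm7a (ENSMUSG00000042599, GRCm38 chromosome 6, 39136623 to 39206789, minus strand) encodes a PHD finger and JmjC protein that removes repressive methyl marks from histone H3. Its level was 143, 142, 145 and 135 CPM in the homecage mice and 204, 184, 170 and 175 CPM in the SOR mice. All SOR mice were above all homecage mice, and the lowest SOR mouse exceeded the highest homecage mouse by more than the whole homecage range. The means were 141 ± 4.37 and 183 ± 15.0 CPM (SD, n = 4), a log2 fold change of 0.38 with a standard error of 0.0559, a 95% interval of 0.25 to 0.50 and an edgeR adjusted p of 0.0212. The fold change stayed below the 1.4-fold used with adjusted p to call a gene, and the upper bound of the interval reached past it. With SOR replicate 1, the highest SOR mouse for Kdm7a, left out, the log2 fold change was 0.32 with an edgeR adjusted p of 0.0163, and without SOR replicate 4 it was 0.39 with an adjusted p of 0.0449.

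The Kdm7a call was lost when certain other libraries were left out, with the direction kept. Adjusted p from edgeR was 0.0671, 0.0844, 0.0673 and 0.1002 without homecage replicates 1, 2, 3 and 4, and 0.0715 without SOR replicate 2. The log2 fold changes in these 5 fits were 0.38, 0.38, 0.39, 0.35 and 0.37. Scaling by library size alone gave an adjusted p of 0.0554 at a log2 fold change of 0.38.

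Of the 3 members with the smallest adjusted p in edgeR, Kdm7a passed and Kmt2a and Kdm3a did not. Their promoter windows are shown. They are RefSeq sequences of GRCm38.p6, 250 bases before to 50 after the annotated start, read 5′ to 3′ on the strand of the gene, and capitals mark a match to an EGR, CRE, AP-1 or NBRE motif. The windows lie at chr6:39206724-39207023 for Kdm7a, chr9:44881240-44881539 for Kmt2a and chr6:71632868-71633167 for Kdm3a, all on the minus strand.
Kdm7a: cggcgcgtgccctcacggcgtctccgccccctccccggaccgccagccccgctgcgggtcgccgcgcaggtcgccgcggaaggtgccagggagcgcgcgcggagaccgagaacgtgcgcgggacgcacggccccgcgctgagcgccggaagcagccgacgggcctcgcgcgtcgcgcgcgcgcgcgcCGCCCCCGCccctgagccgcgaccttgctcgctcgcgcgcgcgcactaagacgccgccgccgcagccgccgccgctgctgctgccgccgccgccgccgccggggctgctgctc
Kmt2a: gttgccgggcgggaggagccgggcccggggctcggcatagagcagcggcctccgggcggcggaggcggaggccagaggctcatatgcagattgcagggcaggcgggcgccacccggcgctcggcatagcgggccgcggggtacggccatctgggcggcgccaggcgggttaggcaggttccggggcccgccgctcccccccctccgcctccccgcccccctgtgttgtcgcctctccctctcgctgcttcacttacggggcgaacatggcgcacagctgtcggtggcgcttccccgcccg
Kdm3a: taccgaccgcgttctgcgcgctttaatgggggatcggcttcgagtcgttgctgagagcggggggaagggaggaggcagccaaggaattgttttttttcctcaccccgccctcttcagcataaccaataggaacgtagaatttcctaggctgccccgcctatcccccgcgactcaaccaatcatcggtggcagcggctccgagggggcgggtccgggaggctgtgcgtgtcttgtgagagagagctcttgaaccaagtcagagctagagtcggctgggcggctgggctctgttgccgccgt
The Kdm7a window held 1 EGR match, CGCCCCCGC on the strand shown, which is the reverse complement of GCGGGGGCG and begins 63 bases before the start. The windows of Kmt2a and Kdm3a held no match to these 4 motifs, and the 3 windows held 3, 5 and 3 GC boxes (GGGCGG on either strand), of which 2 in Kdm7a overlap the EGR match.

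Kmt2a (ENSMUSG00000002028, chromosome 9, 44803355 to 44881296, minus strand) encodes MLL1, which methylates histone H3 at active promoters. Its level was 87.9, 84.0, 86.7 and 62.7 CPM in homecage and 94.8, 114, 115 and 114 CPM in SOR mice. The groups did not overlap, and each held 1 mouse well below its other 3, homecage replicate 4 and SOR replicate 1. Its log2 fold change of 0.45 was the highest of the 60 members with all mice, and without homecage replicate 4 it was 0.34, below the 0.35 of Kdm7a in that fit. With all mice it had a standard error of 0.104 and an edgeR adjusted p of 0.141. The 95% interval of 0.22 to 0.68 leaves differences on both sides of 1.4-fold possible. An antisense transcript with about 58 counts per library overlaps the gene, which itself had 5922 counts on average.

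Kdm3a (ENSMUSG00000053470, chromosome 6, 71588972 to 71632990, minus strand) encodes a JmjC demethylase of a repressive histone H3 mark. Its level was 39.8, 45.8, 42.4 and 41.6 CPM in homecage and 49.5, 54.2, 49.9 and 47.3 CPM in SOR mice. The log2 fold change was 0.24 with a standard error of 0.0570 and an edgeR adjusted p of 0.144. All SOR mice were above all homecage mice, with a gap between the groups smaller than the range within either. Both Kmt2a and Kdm3a passed with DESeq2 and with the likelihood ratio test of edgeR. With DESeq2 2.45% of the 17744 genes given an adjusted p passed, and with the likelihood ratio test 0.972% of 22018. The paralog Kdm3b had a log2 fold change of -0.05 and overlapping groups.

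The 16 JmjC demethylases were split evenly, 8 with a higher and 8 with a lower fold change in SOR, beside 9650 and 12368 of all genes tested. Their median log2 fold change was 0.00, beside -0.02 over all genes tested. Kdm7a was the 1 that passed. Kdm6a and Kdm6b, the X-linked and autosomal demethylases of the Polycomb methyl mark, had fold changes of opposite sign. Kdm6a was at 35.0, 38.4, 36.1 and 36.4 CPM in homecage and at 33.3, 32.4, 32.1 and 32.3 CPM in SOR mice, with a log2 fold change of -0.17 ± 0.0464 (SE) and an edgeR adjusted p of 0.235. The SOR mice lay below the homecage mice for Kdm6a, and the 4 SOR values were within a narrow range. Kdm6b was at 4.60, 4.89, 5.66 and 5.17 CPM in homecage and at 4.68, 6.63, 7.26 and 6.03 CPM in SOR mice, with a log2 fold change of 0.28 ± 0.139 (SE) and an edgeR adjusted p of 0.543. For Kdm6b the SOR mice other than replicate 1 lay above all homecage mice, so the groups overlapped through that mouse. The difference between Kdm6a and Kdm6b was not tested.

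Kdm4d, a demethylase best known from testis, had the largest negative log2 fold change of the members and a low level. It was at 1.58, 1.53, 1.34 and 1.71 CPM in homecage and at 1.06, 0.937, 1.12 and 1.26 CPM in SOR mice. The groups did not overlap, and the log2 fold change was -0.49 ± 0.149 (SE), 0.710-fold, with an edgeR adjusted p of 0.279. Kdm4d was the 1 member with a fold change past 1.4-fold in either direction. Kdm4c, a paralog of it, was at 48.1, 48.1, 48.2 and 49.5 CPM in homecage and at 43.8, 47.5, 44.3 and 43.6 CPM in SOR mice, with a log2 fold change of -0.11 (adjusted p 0.405, edgeR). SOR replicate 2 was the SOR value nearest to homecage for Kdm4c, and the other 2 tested members of the subfamily, Kdm4a and Kdm4b, had overlapping groups with log2 fold changes of -0.05 and 0.05.

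Kdm5b, a demethylase of the active promoter mark that Kmt2 enzymes write, was at 85.8, 88.1, 84.5 and 85.1 CPM in homecage and at 88.9, 91.0, 93.3 and 93.8 CPM in SOR mice. The groups were separated by a small gap, and the log2 fold change of 0.10 had the smallest standard error of the members, 0.0352 (edgeR adjusted p 0.398). Kdm2a, a CpG-island binding demethylase, was at 112, 72.5, 105 and 77.9 CPM in homecage and at 112, 114, 115 and 103 CPM in SOR mice. The 2 low homecage mice for Kdm2a were replicates 2 and 4, which had the largest totals of the homecage libraries. SOR replicate 1, at 112 CPM for Kdm2a, had a total of 72070472, beside 71412170 in homecage replicate 2. The part of library depth in the log2 fold change of 0.27 (SE 0.124, edgeR adjusted p 0.496) was not tested, and without homecage replicate 2 it was 0.18. The X-linked Kdm5c was at 51.3 to 57.0 CPM in homecage and 52.2 to 59.3 CPM in SOR mice, with a log2 fold change of 0.07, and its Y-linked paralog Kdm5d was at 39.2 to 46.0 and 37.0 to 45.7 CPM (log2 fold change -0.03). Both had overlapping groups. The remaining JmjC members, Kdm2b, Kdm5a and Kdm8, had log2 fold changes of 0.02, -0.03 and -0.12.

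The flavin-dependent demethylases Kdm1a (LSD1) and Kdm1b (LSD2) had log2 fold changes of -0.07 and 0.11 and did not pass. Kdm1b was at 15.6, 13.1, 14.8 and 15.8 CPM in homecage and at 15.6, 15.96, 15.8 and 16.8 CPM in SOR mice, so that the lowest SOR mouse lay within the homecage range. Kdm1b overlaps Dek and Tpmt on the opposite strand. Dek had 2763 counts per library on average beside 975 for Kdm1b, and Luzp1, on the strand opposite to Kdm1a, had 11101 beside 2800. Slc48a1 opposite Hdac7 (5608 beside 400), Srpk2 opposite Kmt2e (13590 beside 5180), Rnf34 opposite Kdm2b (3671 beside 1183), Ric8a and Psmd13 opposite Sirt3 (2671 and 2773 beside 1753) and Mafg on the same strand as Sirt7 (2412 beside 1086) also had more counts than the member they overlap. These overlaps are of whole gene spans, and whether exons are shared was not measured. Values of these members are uncertain where exons are shared, and for opposite strands where strand was also not used in counting.

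**Figure D2:**
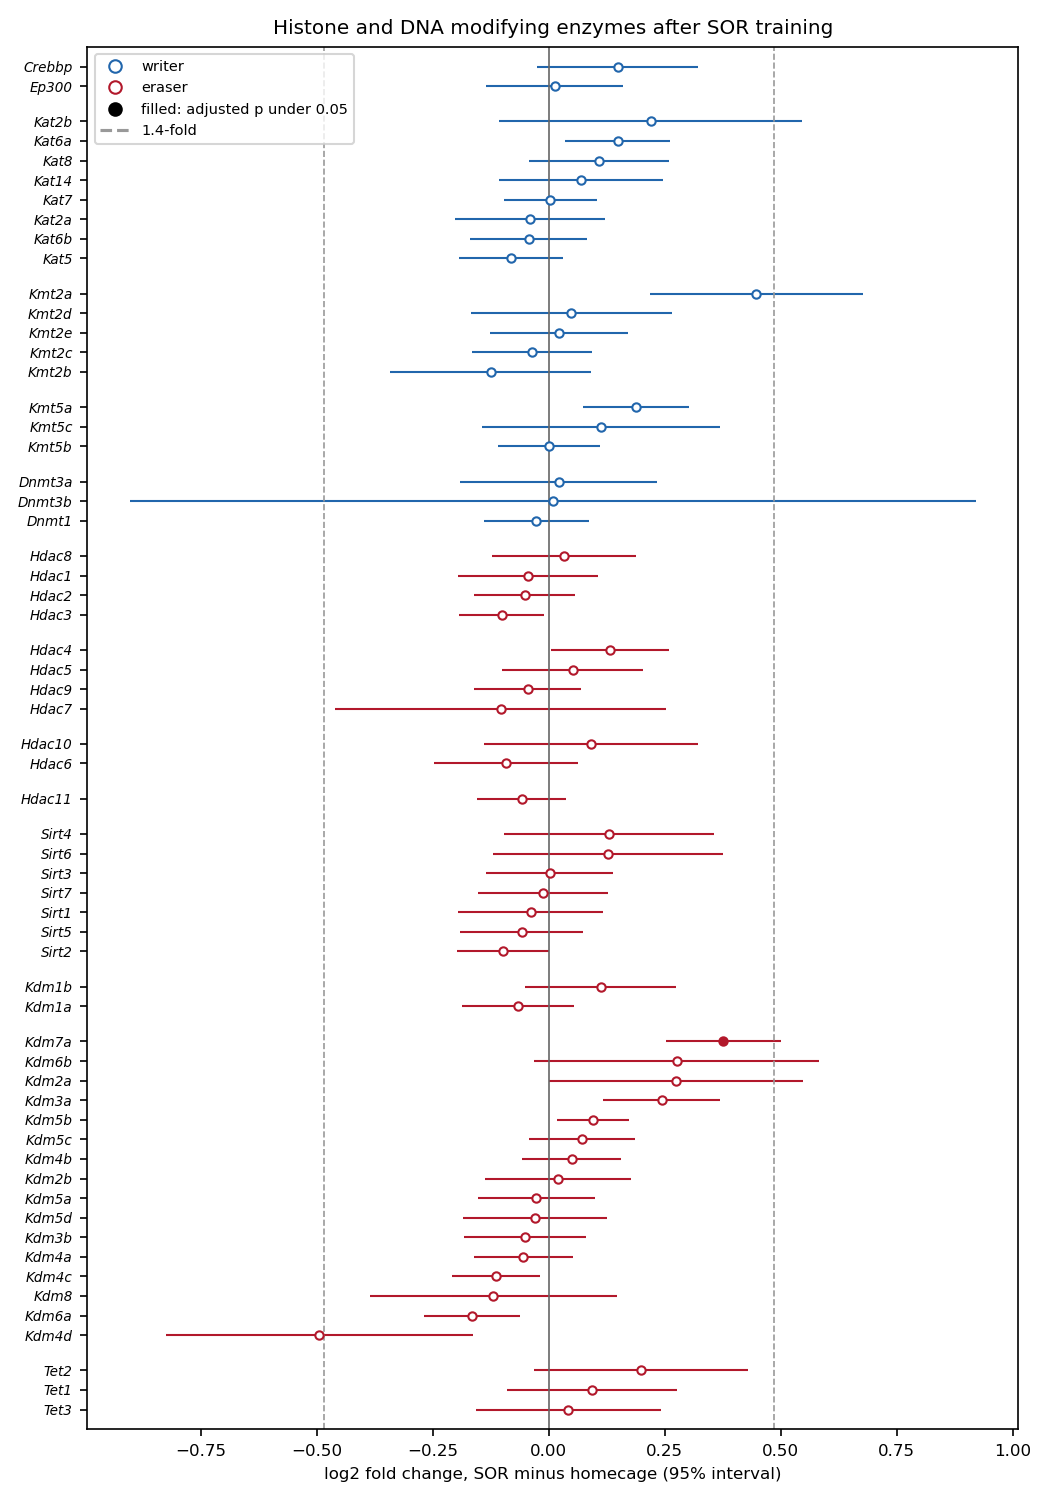
Log2 fold change, SOR minus homecage, of the 60 members tested, grouped by family, with the 95% interval of the edgeR fit as a bar and dashed lines at 1.4-fold in each direction. Writers are blue and erasers red, and the filled point marks Kdm7a, the member with an adjusted p under 0.05. The HDACs and sirtuins lie within 0.13 of 0 on the log2 scale, while Kmt2a, Kdm7a, Kdm6b, Kdm2a and Kdm3a lie furthest above 0 and Kdm4d furthest below.

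Histone deacetylases and sirtuins lay close to their homecage level. All 18 were tested, none passed, all had a fold change within 10%, and all had a 95% interval inside 1.4-fold in both directions. Over all genes tested, 61.1% had a fold change within 10% and 58.9% an interval inside 1.4-fold. Among the protein-coding genes tested these shares were 67.7% and 72.1%, and among all members 80.0% and 88.3%. The median log2 fold change of the 18 was -0.04, with 7 above and 11 below 0, beside 9650 and 12368 of all genes tested.

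Among the class I enzymes, which act in nuclear corepressor complexes, Hdac3 had the smallest p. It was at 52.4, 52.0, 54.1 and 55.2 CPM in homecage and at 48.0, 49.3, 51.8 and 50.2 CPM in SOR mice. The groups were separated by a gap of well under 1 CPM, with a log2 fold change of -0.10 ± 0.0418 (SE) and an edgeR adjusted p of 0.453. Hdac1, Hdac2 and the X-linked Hdac8 had overlapping groups and log2 fold changes of -0.05, -0.05 and 0.03, and Hdac8 was at 12.3 to 14.02 CPM in homecage and 12.9 to 13.8 CPM in SOR mice.

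The class IIa enzymes shuttle between cytoplasm and nucleus with neuronal activity. Hdac4, the member of this class with the smallest p, was at 51.5, 53.7, 49.0 and 56.9 CPM in homecage and at 60.0, 57.8, 53.2 and 60.4 CPM in SOR mice. The SOR value of replicate 3 lay within the homecage range, and the log2 fold change was 0.13 ± 0.0576 (SE) with an edgeR adjusted p of 0.481. Hdac5, Hdac7 and Hdac9 had log2 fold changes of 0.05, -0.10 and -0.05. Of class IIb, Hdac10 had a log2 fold change of 0.09, and the X-linked cytoplasmic deacetylase Hdac6 was at 29.2 to 35.2 CPM in homecage and 27.3 to 31.9 CPM in SOR mice, with a log2 fold change of -0.09 (adjusted p 0.712, edgeR) that was -0.04 without homecage replicate 1. Hdac11, the class IV enzyme, was at 167, 151, 152 and 157 CPM in homecage and at 145, 158, 150 and 149 CPM in SOR mice, with a log2 fold change of -0.06 and an adjusted p of 0.704.

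Sirtuins had log2 fold changes from -0.10 (Sirt2) to 0.13 (Sirt4). Sirt2, a deacetylase abundant in myelinating cells, was at 63.1, 67.3, 68.2 and 65.7 CPM in homecage and at 61.6, 64.2, 58.0 and 63.3 CPM in SOR mice, with an edgeR adjusted p of 0.502. Only SOR replicates 2 and 4 lay within the homecage range. Markers of mature oligodendrocytes (Mbp, Mog, Mag, Mobp, Cnp, Cldn11, Opalin, Ermn) all had a lower fold change in SOR, at a median of -0.17 on the log2 scale, and summed to 4206 to 4565 CPM in homecage and 3460 to 4635 CPM in SOR libraries. None of these 8 markers passed, and 12368 of the 22018 genes tested had a lower fold change. The part of the markers in the Sirt2 value was not tested. Mitochondrial Sirt4 was at 5.69, 6.63, 5.34 and 6.66 CPM in homecage and at 6.31, 6.99, 6.43 and 6.91 CPM in SOR mice, with overlapping groups and an adjusted p of 0.729. Sirt1, Sirt3, Sirt5, Sirt6 and Sirt7 had log2 fold changes of -0.04, 0.00, -0.06, 0.13 and -0.01. Sirt2 overlaps Nfkbib on the opposite strand, which had 730 counts per library beside 4058.

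The acetyltransferases gave 7 higher and 3 lower fold changes among 10 members, beside 9650 and 12368 of all genes tested. None of the 10 passed. Kat6a, the catalytic subunit of the MOZ complex, was at 74.0, 68.5, 73.8 and 71.4 CPM in homecage and at 74.8, 81.8, 86.1 and 76.3 CPM in SOR mice. The groups did not overlap, with SOR replicate 1 less than 1 CPM above the highest homecage mouse, and the log2 fold change was 0.15 ± 0.0514 (SE) with an edgeR adjusted p of 0.363. Crebbp, the CREB binding protein, was at 94.3, 93.8, 93.7 and 94.0 CPM in homecage and at 84.8, 113, 113 and 106 CPM in SOR mice. Its homecage mice were nearly identical, 3 SOR mice lay above them and SOR replicate 1 lay below. The log2 fold change was 0.15 ± 0.0785 (SE) with an edgeR adjusted p of 0.565, and without SOR replicate 1 it was 0.23 with an adjusted p of 0.0349. Ep300, which encodes the close paralog p300, had a log2 fold change of 0.01, and SOR replicate 1 was also its lowest mouse at 46.5 CPM, beside 47.7 to 54.2 CPM in homecage and 51.02 to 56.7 CPM in the other SOR mice.

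Kat2b (PCAF) was at 22.6, 26.6, 29.5 and 29.3 CPM in homecage and at 41.9, 31.6, 26.3 and 25.9 CPM in SOR mice. Here SOR replicate 1 was the highest of all mice, and the log2 fold change was 0.22 (adjusted p 0.670, edgeR) with it and 0.05 (adjusted p 0.928) without it. Kat5 (TIP60) was at 36.4, 41.3, 36.5 and 38.6 CPM in homecage and at 35.9, 36.0, 36.8 and 35.8 CPM in SOR mice, with a log2 fold change of -0.08 and an adjusted p of 0.642. Kat8 (MOF) was at 12.8, 13.7, 13.3 and 12.7 CPM in homecage and at 15.1, 14.1, 13.99 and 13.3 CPM in SOR mice, with a log2 fold change of 0.11 and an adjusted p of 0.643. In both, 1 or more SOR mice lay within the homecage range. Kat5 overlaps Rnaseh2c on the opposite strand, which had 751 counts per library beside 2369. The other acetyltransferases, Kat2a, Kat6b, Kat7 and Kat14, had log2 fold changes from -0.04 to 0.07.

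Of the members of the histone methyltransferase families Kmt2 and Kmt5, counted by family and not by shown activity, 6 of 8 had a higher fold change in SOR. Over all 22018 genes tested the number was 9650. None of the 8 passed. Beside Kmt2a, the enzyme Kmt5a, which monomethylates histone H4, was at 36.7, 36.5, 38.1 and 36.3 CPM in homecage and at 45.6, 41.0, 39.6 and 41.8 CPM in SOR mice. The groups did not overlap, SOR replicate 1 was the highest, and the log2 fold change was 0.19 ± 0.0516 (SE) with an edgeR adjusted p of 0.225. Its paralogs Kmt5b and Kmt5c, which add further methyl groups to the same residue, had log2 fold changes of 0.00 and 0.11. Kmt2b was at 14.6, 17.7, 20.7 and 16.2 CPM in homecage and at 15.9, 15.7, 16.1 and 15.7 CPM in SOR mice, with a log2 fold change of -0.13 (adjusted p 0.726, edgeR) and SOR values inside the homecage range. Without homecage replicate 3 it was -0.03, and without homecage replicate 1 it was -0.20. Kmt2c, Kmt2d and Kmt2e had log2 fold changes of -0.04, 0.05 and 0.02.

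Among DNA modifying enzymes no writer or eraser passed. The maintenance enzyme Dnmt1 and the de novo enzyme Dnmt3a, both present in adult neurons, had log2 fold changes of -0.03 and 0.02, with 95% intervals inside 1.4-fold. Dnmt3b was at 0.439 to 0.599 CPM in homecage and 0.148 to 0.844 CPM in SOR mice, and its interval of -0.90 to 0.92 leaves a difference of either sign possible at this depth. Dnmt3c, a close copy of Dnmt3b whose reads may be hard to separate from it, and the cofactor Dnmt3l did not pass the filter, with at most 14.4 and 15.1 counts and at most 0.188 and 0.268 CPM in any library.

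The TET dioxygenases all had a higher fold change in SOR, 0.09 for Tet1, 0.20 for Tet2 and 0.04 for Tet3 on the log2 scale. None of these genes passed, and 9650 of the 22018 genes tested had a higher fold change. Tet2 was at 62.7, 50.5, 49.6 and 55.2 CPM in homecage and at 50.7, 62.2, 65.6 and 71.9 CPM in SOR mice. The groups overlapped through homecage replicate 1, the highest homecage mouse, and SOR replicate 1, the lowest SOR mouse. The log2 fold change had a 95% interval of -0.03 to 0.43, and its standard error was 0.105 with an edgeR adjusted p of 0.561.

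Writers and erasers were set side by side over all their tested members. The 21 writers tested had 15 higher and 6 lower fold changes in SOR and a median of 0.02 on the log2 scale. The 39 erasers had 19 higher and 20 lower with a median of -0.01, beside -0.02 over all genes tested. Of the 22018 genes tested, 9650 had a higher and 12368 a lower fold change. The eraser median changed sign with TMM factors, RLE factors and DESeq2 (each 0.01) and without SOR replicate 1 (0.02). The median over all genes also changed sign with TMM factors (0.0006), RLE factors (0.0019) and DESeq2 (0.0043), from -0.0193 as reported. Without SOR replicate 1 it was -0.0157. The writer median was 0.06 without SOR replicate 1 and -0.01 without SOR replicate 3. At an unadjusted p under 0.05, 3 writers (14.3%) were higher and 0 lower, while 5 erasers (12.8%) were higher and 4 (10.3%) lower. The shares were 4.54% and 5.51% of all genes, and 5.32% and 6.07% of protein-coding genes. Summed over the writers, the level was 1138 to 1178 CPM in homecage and 1142 to 1261 CPM in SOR libraries, and over the erasers it was 1695 to 1757 and 1739 to 1810 CPM. Both sums overlapped between the groups, in each case through SOR replicate 1. Summed over all members, the level was 2847 to 2924 CPM in homecage and 2881 to 3062 CPM in SOR libraries. As a share of the unscaled library total, the members took 0.278% to 0.295% in homecage and 0.297% to 0.303% in SOR libraries, and on that scale the groups did not overlap. The mean sum over all members was 2882 CPM in homecage and 2997 CPM in SOR. It includes Kdm7a, with means of 141 and 183 CPM, and Kmt2a, with 80.3 and 110 CPM. Of the 60 members tested, 34 had a higher and 26 a lower fold change. The share without Kdm7a and Kmt2a was not tested.

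**Figure D3:**
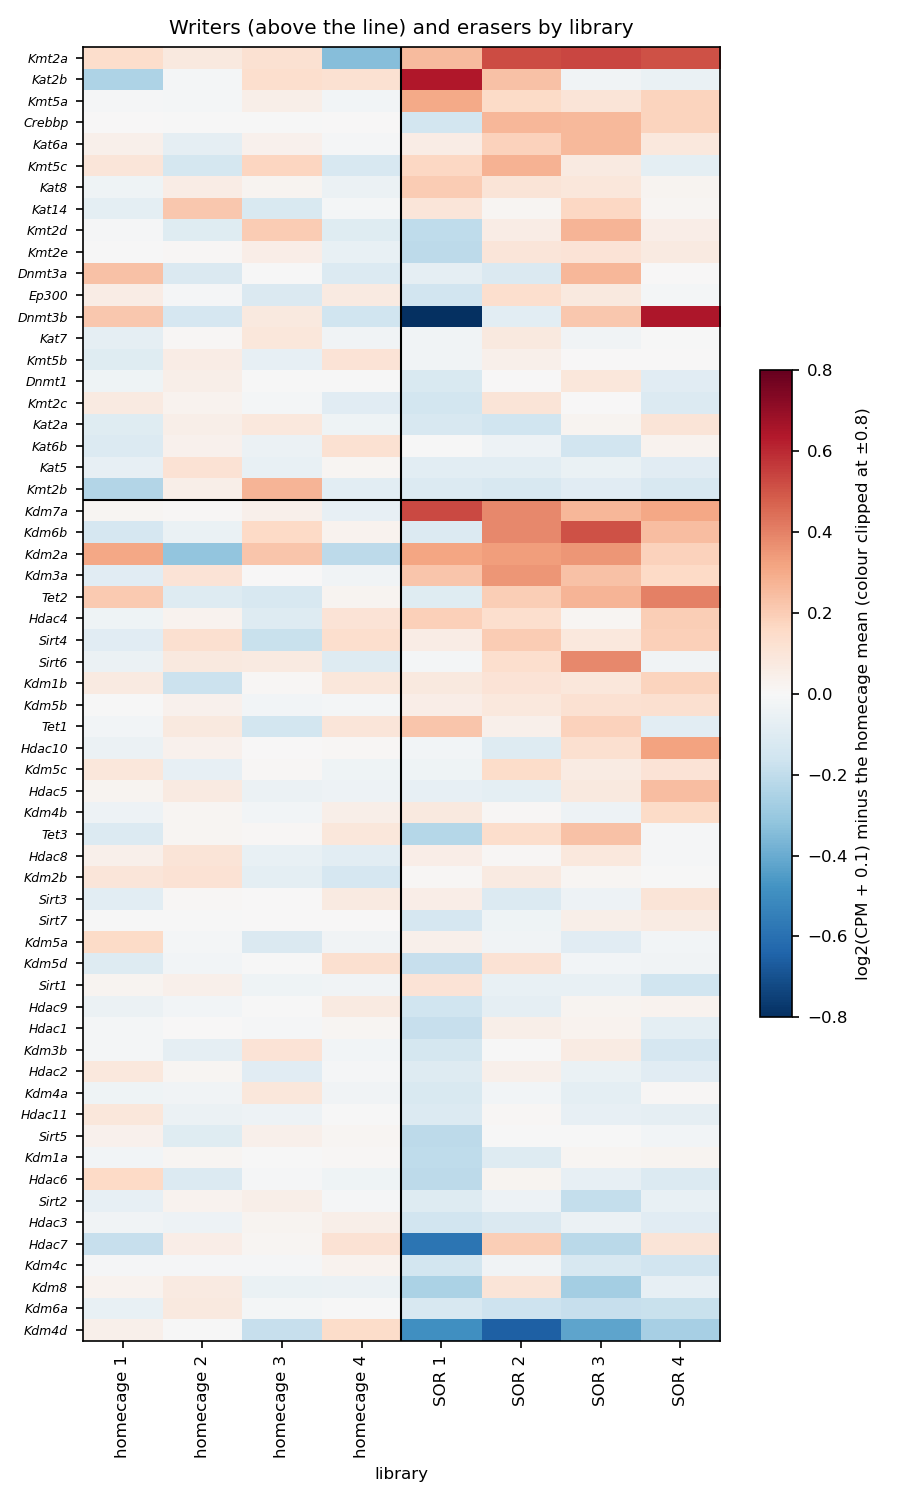
Log2(CPM + 0.1) of each of the 60 members in each of the 8 libraries, minus the homecage mean of that gene, with writers above the line and erasers below and colours clipped at 0.8. SOR replicate 1 differs from the other SOR mice for Crebbp, Kmt2e and Kat2b, and the rows of Kdm7a, Kmt2a and Kdm3a are above 0 in all SOR mice.

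Members differed far more from each other in level than between the groups. Per kilobase of merged exons, Hdac11 was the most abundant member in homecage mice at 40.7 ± 1.84 CPM per kb (SD, n = 4), followed by Hdac2 at 17.5 ± 0.887. Each of these was above the next gene in every homecage library. Kdm7a came next at 14.04 ± 0.434 CPM per kb, followed by Hdac3 at 13.2 and Sirt2 at 13.1, and neighbours among these 3 overlapped. At the low end were Hdac7 at 0.970, Kdm6b at 0.730, Kdm4d at 0.538 and Dnmt3b at 0.0991 CPM per kb, each separated from its neighbours in the order. Of the 59 pairs of neighbours in this order, 48 overlapped over the homecage libraries.

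The median level was 5.55 CPM per kb for the writers tested and 4.35 for the erasers. Within pairs of paralogs in homecage mice, the level per kb was 1.92 times higher for Crebbp than for Ep300. It was 5.96 times higher for Kdm6a than for Kdm6b. It was 2.71 times higher for Kdm5c than for Kdm5d and 2.68 times higher for Kmt2a than for Kmt2b. Merged exons join all annotated exons of a gene and need not match the transcripts present, so these ratios and the order above depend on the annotation. For Kdm5c and Kdm5d the merged lengths were 7110 and 15164 bases, and the homecage means before division were 53.6 and 42.1 CPM. Across the 60 members, Spearman's rho between log2 fold change and level per kb was -0.11, and between log2 fold change and merged exon length it was 0.22. These are descriptions over genes that share the same 8 libraries.

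**Figure D4:**
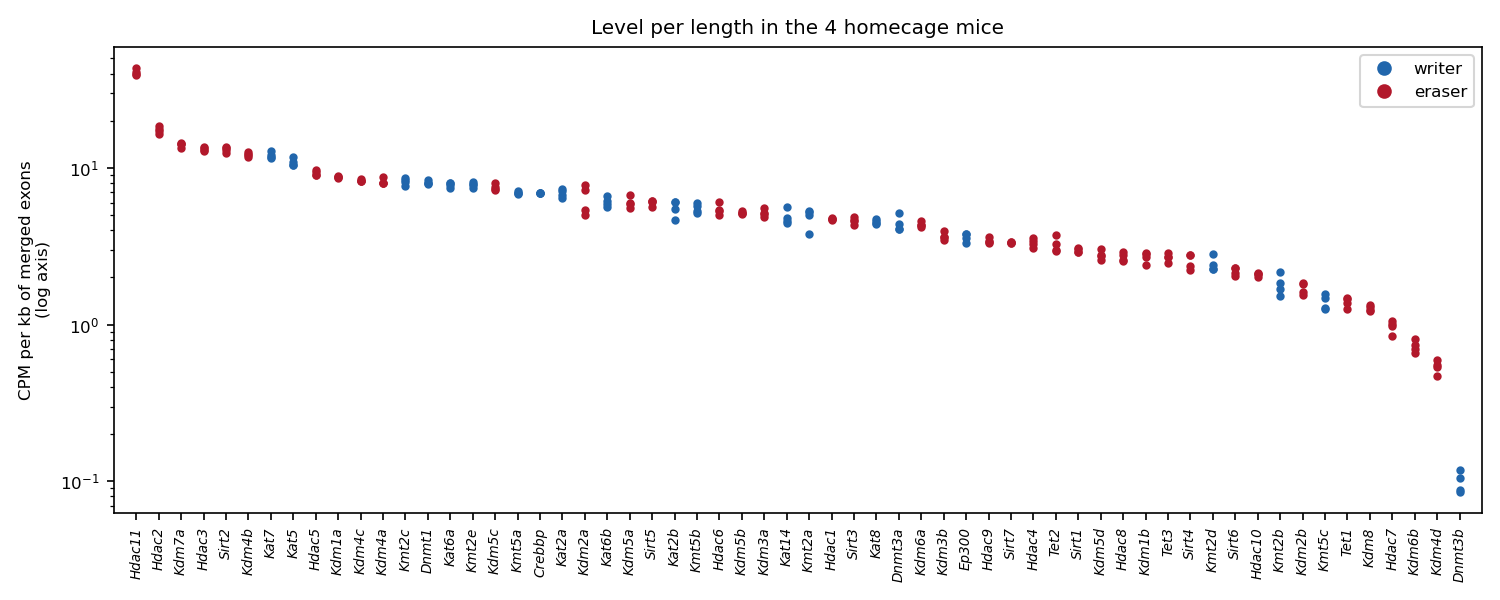
Level of the 60 tested members in the 4 homecage mice, in CPM per kb of merged exons on a log axis, ordered from highest to lowest mean. Each point is 1 mouse, with writers in blue and erasers in red. Hdac11 stands above all others at 40.7 CPM per kb and Dnmt3b below all others at 0.0991.

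The promoter windows of the members were set beside all RefSeq windows of the same length. Each member kept only the window whose start was nearest to its GENCODE gene start. The set of all windows was not limited in that way, nor to protein-coding genes. The sets are therefore unlike, and whether the shares below differ from those of other protein-coding genes was not tested. Windows were found for 50 of the 62 members, and the median number of CpG was 19.5 for the members and 7 over all 32851 windows, with the lowest in Hdac9 at 0 and the highest in Kdm7a at 65. The Kdm7a window shown above was 82.7% G and C, and those of Kmt2a and Kdm3a had 36 and 24 CpG. Letters were searched on both strands. The core of the CRE, TGACG, was in 18 member windows (36.0%) and in 20.8% of all windows, and the full CRE TGACGTCA was in 0 and in 1.79%. The EGR site, GCGGGGGCG or GCGTGGGCG, was in the windows of Dnmt3b, Ep300, Kat14, Kdm7a and Sirt1 (10.0%) and in 3.47% of all windows.

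The AP-1 site, TGAGTCA or its reverse complement TGACTCA, was in 3 member windows, those of Kat2b, Kdm4a and Kdm5c, and in 5.20% of all windows, the NBRE of NR4A factors, AAAGGTCA, was in those of Kat7 and Kdm6a and in 1.51%, and the GC box GGGCGG was in 33 member windows (66.0%) and in 35.7%. The heat shock core GAANNTTC was in those of Dnmt1 and Kdm5b and in 7.86%. A match describes the letters of the window and not binding. GC-rich motifs and CpG number are tied to the base composition of the windows.

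Genes that work with these enzymes were counted from 9 lists with 116 genes in all. Jmjd6, a JmjC protein with hydroxylase activity, was the 1 gene that passed. It rose from 20.2 ± 1.44 to 28.0 ± 2.45 CPM (SD, n = 4), which is 0.48 ± 0.0767 (SE) as a log2 fold change with an edgeR adjusted p of 0.0332. All SOR mice were above all homecage mice. Its adjusted p was 0.0460 without homecage replicate 1 and 0.0530 to 0.138, and so above the threshold, without each of the other 7 libraries in turn, with log2 fold changes of 0.41 to 0.51. The list of other JmjC proteins had 8 higher and 2 lower fold changes among 10 genes, beside 9650 and 12368 of all genes tested. Its median was 0.07 on the log2 scale. It also holds Jmjd1c, a paralog of Kdm3a, at a log2 fold change of 0.13 with an edgeR adjusted p of 0.332.

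In the other 8 lists 0 genes passed by edgeR. The 21 subunits of corepressor and deacetylase complexes had a median log2 fold change of 0.00, with the highest at 0.45 for Sap30 (adjusted p 0.1499). The 20 other histone methyl- and acetyltransferases had a median of -0.01, the 9 arginine methyltransferases -0.01, the 10 acetyl-lysine readers -0.02, the 10 methyl-CpG readers 0.02, the 10 subunits of the COMPASS complexes that carry Kmt2 enzymes 0.04, the 17 Polycomb genes 0.02 and the 9 partners of DNA demethylation 0.02. At an unadjusted p under 0.05 these 8 lists held 8 higher and 3 lower genes, 7.55% and 2.83% of their 106 genes. All 9 lists together held 11 higher and 3 lower, 9.48% and 2.59% of 116 genes. The shares were 4.54% and 5.51% of all genes tested, and 5.32% and 6.07% of the protein-coding ones.

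**Figure D5:**
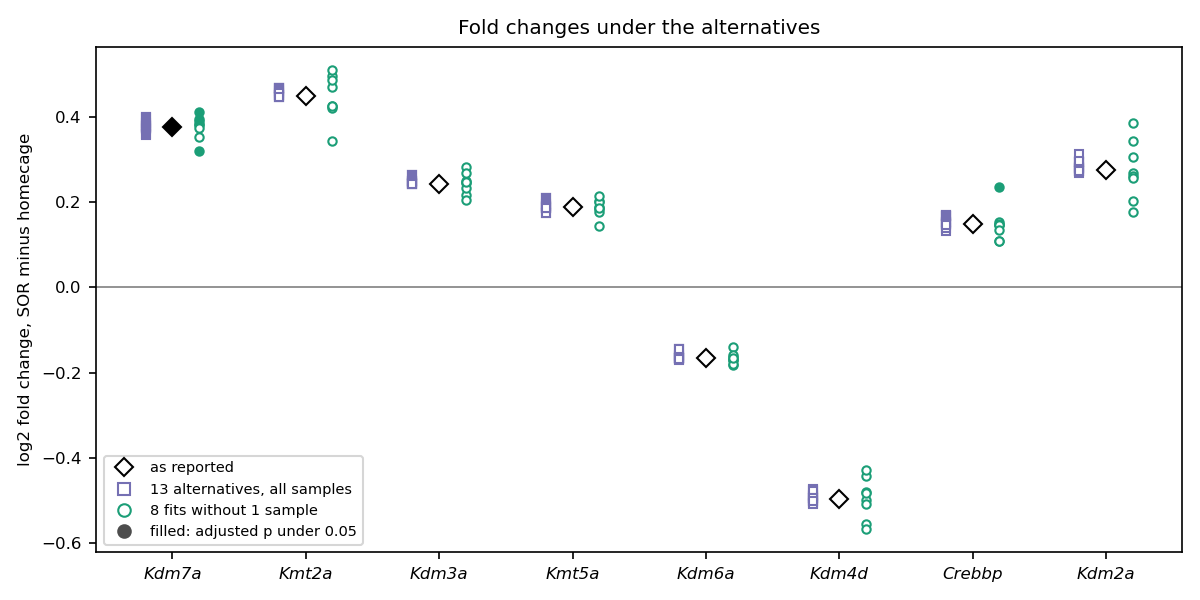
Log2 fold change, SOR minus homecage, of 8 members as reported (diamonds), under 13 alternatives with all samples (squares) and in 8 fits that each left out 1 sample (circles), with filled symbols for an adjusted p under 0.05. No sign changed for these 8 genes, and Kdm7a was between 0.32 and 0.41 over all these fits.

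The precision of the fit sets what could be seen. The standard error of the log2 fold change was 0.0352 to 0.412 over the 60 members with a median of 0.0676, and 53 members had a 95% interval inside 1.4-fold in both directions. The intervals of the other 7, Kdm4d, Kdm7a, Kat2b, Kdm2a, Kdm6b, Kmt2a and Dnmt3b, reached past it. For these genes a difference of that size lay inside the interval at this depth and number of mice.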

How the data were processed

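Dorsal hippocampal RNA of 8 mice was sequenced by the authors with a total RNA kit with ribosomal depletion according to the methods, while the labels give polyA RNA. The methods name STAR and featureCounts within bcbio-nextgen on mm10. The deposited table holds estimated counts per gene that the authors summarised with tximport and left unnormalized. Each mouse has 1 column, and 52.6% of the values are not whole. The quantifier behind tximport, its scaling and the use of strand in counting are not given in the sources used here. The samples of the spatial and single-nucleus experiments were not analysed here.

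Types and positions came from GENCODE M21 (GRCm38), which held 54495 of the 54532 rows. Counts were rounded, filtered with filterByExpr and scaled by upper-quartile factors. SOR was compared with homecage over all 22018 genes in edgeR 4.0.16 (R 4.3.3) with the quasi-likelihood F test and Benjamini-Hochberg adjustment. The standard error is the log2 fold change over the square root of F. For single members, log2 CPM with a prior count of 2 also went into an exact permutation test, two-sided. Intervals are at 95%. The fits were tested on simulated data.

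The alternatives were other factors and filters, a likelihood ratio test, DESeq2 1.42.0, limma-voom (limma 3.58.1), RUVs factors, a replicate block, unrounded counts and leaving out each sample. Replicates were separate mice, and between them the chi-square per degree of freedom over genes was 11.1 to 49.2, above counting error. Promoter windows came from RefSeq (GRCm38.p6). Members with an adjusted p under 0.05 were given in full, followed by those with the smallest p up to 25 in all, and the rest by family with their fold change. The members and lists were chosen with earlier results of these data known. Results for 2 genes of the marker and partner lists are not reported here, and the lists were counted without them.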

Additional observations from a re-analysis of the deposited data

Results flagged for a closer look

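In groups of 4 mice, the highest or lowest value was set against the other 3 with Dixon's test at the 95% level, and 9 of 120 groups had a value apart, where chance gives about 1 in 20. SOR replicate 1 was the low value for 3 genes. It was at 94.8 CPM for Kmt2a, beside 114 to 115 CPM in the other SOR mice, at 31.6 CPM for Sirt5, beside 36.0 to 36.6 CPM, and at 70.3 CPM for Kmt2e, beside 85.5 to 88.0 CPM.

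Homecage replicate 4 was at 62.7 CPM for Kmt2a, beside 84.0 to 87.9 CPM in the other homecage mice, and at 49.5 CPM for Kdm4c, beside 48.1 to 48.2 CPM. Homecage replicate 2 was at 34.3 CPM for Sirt5, beside 37.1 to 37.6 CPM, and homecage replicate 3 was at 50.6 CPM for Kdm4a, beside 46.3 to 46.6 CPM. SOR replicate 2 was at 47.5 CPM for Kdm4c, beside 43.6 to 44.3 CPM in the other SOR mice, and SOR replicate 3 was at 36.8 CPM for Kat5, beside 35.8 to 36.0 CPM. For Kdm4c the homecage values span less than 2 CPM, so a small step set that value apart. The cause of these values was not tested.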

How the results depend on the processing

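The number of members higher in SOR at an adjusted p under 0.05 was 1 as reported. It was 0 with scaling by library size only, 3 with the likelihood ratio test, 4 with DESeq2, and 3, 4 and 5 with 1, 2 and 3 RUVs factors. The RUVs fits also used the likelihood ratio test, so 2 choices changed together in them, and 1 factor gave the same number as that test alone. It was 0 to 2 when each sample was left out in turn. It was 0 with the replicate block, where Kdm7a had a log2 fold change of 0.37 and an adjusted p of 0.0550, and the number past both thresholds over all genes was 30. Deviations of samples with the same replicate number correlated between -0.08 and 0.07, and those of samples with other numbers between -0.20 and 0.19. These few correlations cannot decide whether the numbers pair the mice. No member was lower at this threshold in any alternative. The number of all genes past an adjusted p of 0.05 and 1.4-fold was 38 as reported, 105 with the likelihood ratio test, 114 with DESeq2, and 134, 191 and 203 with the likelihood ratio test and 1, 2 and 3 RUVs factors, and 22 to 38 when each sample was left out, with the lowest without homecage replicate 2. With DESeq2 the share of members past the adjusted threshold was 6.67%, beside 2.45% of the 17744 genes that it gave an adjusted p. With 3 RUVs factors and the likelihood ratio test it was 8.33%, beside 2.31% of 22018 genes.

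Kdm7a passed in 11 of the 13 alternatives with all samples, and in 3 of the 8 fits without 1 sample. Kmt2a and Kdm3a passed in 5 of the 13, the likelihood ratio test, DESeq2 and the RUVs fits, and in 0 of the 8. Kmt5a passed with DESeq2 (adjusted p 0.0470), Tet2 with the likelihood ratio test and 3 RUVs factors (0.0313), and Crebbp with that test and 2 or 3 RUVs factors and, in the quasi-likelihood fit, without SOR replicate 1 (0.0349). Jmjd6, tried under the same alternatives after its values were seen, also failed to pass with scaling by library size only (0.0613). Why these calls differ between fits was not tested. None of the 25 members given in full changed sign in any of these fits. Of all 60, 4 changed sign in an alternative with all samples and 16 when 1 sample was left out, and 44 in neither. The medians of writers and erasers moved by less than the spread between replicates, 0.0566 and 0.0409, though they are small enough to change sign. That spread is the SD of the median deviation of 1 library. It is wider than the error of a difference between groups of 4, so it does not show that the medians are stable. With 4 mice per group the exact permutation test cannot go below p = 0.0286.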

Other observations

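Among genes that read or accompany these marks, several had an unadjusted p under 0.05 without passing the adjusted threshold in edgeR. Phf8, a JmjC demethylase outside the Kdm symbols and a relative of Kdm7a, had a log2 fold change of 0.23 (adjusted p 0.408) with overlapping groups. Uhrf2, a reader of modified cytosine, went from 62.5 ± 2.86 to 69.0 ± 1.69 CPM (SD, n = 4), a log2 fold change of 0.14 (adjusted p 0.276). Cxxc5, a CpG-binding partner of TET2, had a log2 fold change of -0.20 (adjusted p 0.323), and Ezh2, the Polycomb methyltransferase, also had -0.20 (adjusted p 0.485). These genes were chosen after their values were seen.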
